A study of Mus musculus with 43 samples.

Results

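The genes described here encode 6 proteins of arginine metabolism, Arg1, Arg2, Nos2, Odc1, Slc7a2 and Ass1, followed in whole lung of mice exposed to house dust mite extract (HDM). They were taken by NCBI Gene ID from a table of 24475 genes, and all 6 were among the 15979 genes with enough counts to be tested. RNA sequencing covered 43 lungs in 7 groups: saline (n = 5), HDM for 11 weeks (n = 6), HDM for 19 weeks (n = 7), and 19 weeks of HDM with isotype control antibody (n = 7), with anti-IL-33 plus isotype (n = 6), with anti-IL-4Rα plus isotype (n = 7), or with anti-IL-33 plus anti-IL-4Rα (n = 5), called the combination. Per the design text, the mice were females aged 8 to 12 weeks on a hybrid 129S6/C57BL/6 background and received HDM intranasally 3 times a week. Mice for the antibody tests, in which itepekimab blocked IL-33 and dupilumab blocked IL-4Rα, carried human sequence for IL-4, for IL-33 and for the ectodomain of IL-4Rα, and the labels do not say whether the saline and untreated HDM groups carried it too. The exposure times here are those of the labels, and the design text differs from them, with exposures of 4, 15 or 19 weeks. It names antibody starts before HDM, at 4 weeks and at 11 weeks, and the labels do not say which one applies to these lungs, nor how long saline was given.

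Arginine enters cells through cationic amino acid transporters such as the one encoded by Slc7a2, and several enzymes then compete for it. Arginases (Arg1 in the cytosol, Arg2 in mitochondria) split it into urea and ornithine, from which ornithine decarboxylase (Odc1) opens polyamine synthesis and other enzymes make proline. Inducible nitric oxide synthase (Nos2) instead turns arginine into nitric oxide and citrulline, and argininosuccinate synthase (Ass1) starts the rebuilding of arginine from citrulline. In mouse lung, Arg1 is known as a target of IL-4 and IL-13 signalling through IL-4Rα and STAT6 and is used as a marker of alternatively activated macrophages, while Nos2 is used as a marker of classical activation.

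On mm10, Slc7a2 (Gene ID 11988) lies on chromosome 8 from 40862341 to 40922070, Arg1 (11846) on chromosome 10 from 24915207 to 24927470, and Arg2 (11847) on chromosome 12 from 79130788 to 79156301. Odc1 (18263) lies on chromosome 12 from 17544808 to 17551502, Nos2 (18126) on chromosome 11 from 78920787 to 78960226, and Ass1 (11898) on chromosome 2 from 31470270 to 31520670. Arg2 overlaps Vti1b and Gm48780 on the opposite strand, Slc7a2 overlaps the lincRNA Gm26584 on the opposite strand, and Odc1 holds the snoRNA Gm22748 on its own strand. Whether the counting used strand is not given in the sources used here, so reads of these overlapping genes cannot be told apart. The RefSeq promoter table of GRCm38.p6, the assembly of mm10, held an entry for 2 of the 6 genes, Ass1 and Odc1, of which the first was called higher after HDM and the second was not. The 250 and 185 bases before their start sites are shown for that contrast, with a CACGTG E-box in capitals where 1 occurs.
Ass1, chr2:31470020-31470269, plus strand: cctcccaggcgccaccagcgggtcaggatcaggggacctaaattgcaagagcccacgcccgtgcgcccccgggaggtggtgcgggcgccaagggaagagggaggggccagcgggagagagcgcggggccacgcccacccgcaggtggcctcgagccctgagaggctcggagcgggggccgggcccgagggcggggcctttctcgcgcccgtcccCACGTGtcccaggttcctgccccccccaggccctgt
Odc1, chr12:17544623-17544807, plus strand: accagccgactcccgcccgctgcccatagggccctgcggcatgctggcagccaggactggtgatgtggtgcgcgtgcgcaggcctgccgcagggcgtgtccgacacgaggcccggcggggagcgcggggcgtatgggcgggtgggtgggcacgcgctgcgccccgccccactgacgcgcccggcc
Both stretches are rich in GC, 75.6% for Ass1 and 77.8% for Odc1. The Ass1 window held 1 E-box and the Odc1 window none, and 7.2% of 32851 promoter windows of 300 bases hold one. A search of both strands for the STAT6-type site (TTC and GAA with 4 bases between), the STAT-type site (with 3 bases between), TATAAA and the kappaB site found no match in either window, whereas 7.0%, 8.3%, 13.6% and 8.5% of all windows hold one. These are matches of letters in a window and say nothing about binding.

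Total counts ranged from 11.9 M to 26.7 M per library. Libraries differed in how far their expression tilted towards GC-rich transcripts, measured as a slope on transcript GC content of each gene's log2 CPM minus its 43-library mean, in log2 units per 10 GC percentage points. The slope was above 0.75 in 9 libraries, called steep here: 1 at 19 weeks of HDM, 2 of the anti-IL-33 group, 3 of the anti-IL-4Rα group, and 3 of the 5 combination libraries. None of the saline, 11-week or isotype libraries was steep, the 5 saline slopes ran from -0.82 to -0.34, and the libraries nearest the limit were at 0.74 and 0.82. Steepness therefore moves with treatment, and each result below is set beside its value without these libraries where that changes the call. Levels are given as CPM, counts scaled to the effective size of each library, and changes as log2 fold changes ± SE from edgeR's quasi-likelihood test, with p-values adjusted over all tested genes and called under 0.05. The labels number the animals but do not say how they were housed or processed, so p-values measure the spread between these lungs only.

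**Figure D1:**
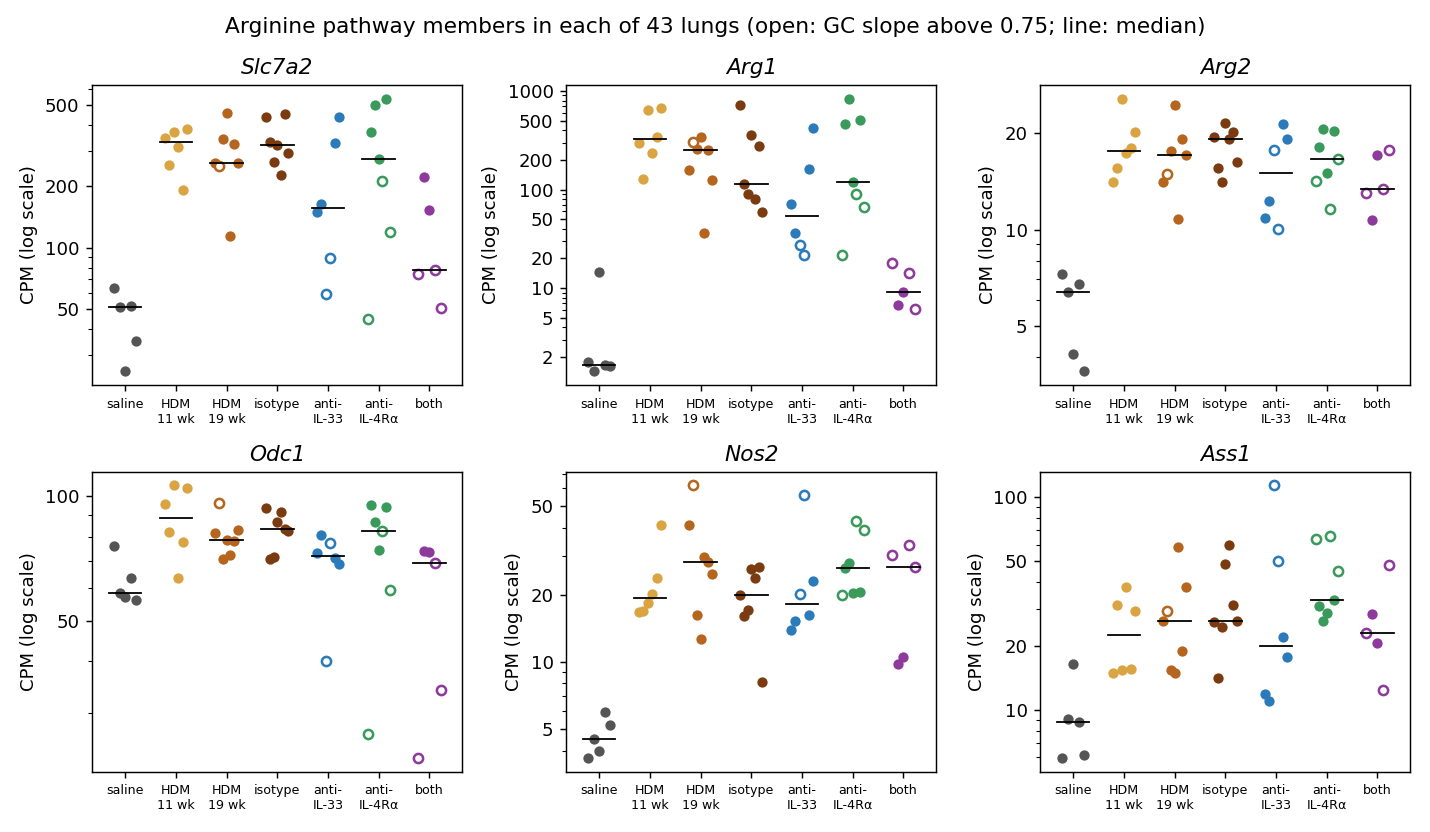
CPM of each of the 6 genes (log scale) in every lung, by group; filled points are libraries with a GC slope up to 0.75, open points the 9 steep ones, and lines mark group medians. Arg1 in the combination group sits between 6.19 and 17.9 CPM, below all isotype lungs at 59.1 CPM and above.

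HDM raised the arginine transporter, both arginases, the nitric oxide synthase and the citrulline-recycling enzyme together. After 11 weeks 5 of the 6 genes were called higher and none lower, beside 8.65% of all tested genes called higher, and 4 of the 6 (Slc7a2, Arg1, Arg2 and Nos2) did not overlap saline, beside 11.1% of all tested genes. Their log2 fold changes had a median of 2.00, against 0.003 over all tested genes. Odc1 was the gene that did not pass.

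Slc7a2, which encodes the transporter CAT2, stood at 63.7, 51.2, 24.8, 52.1 and 35.0 CPM in the 5 saline lungs. At 11 weeks of HDM it ran from 192 to 383 CPM with a median of 330 CPM. All exposed lungs were therefore above all saline lungs, a rise of 2.77 ± 0.49 on the log2 scale (edgeR adjusted p = 6.51e-05). At 19 weeks Slc7a2 ran from 114 to 460 CPM with a median of 260 CPM, again with no overlap with saline (2.66 ± 0.48, edgeR adjusted p = 4.67e-05).

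Arg1 showed the largest change of the 6 genes. Saline lungs held 1.78, 1.43, 14.6, 1.67 and 1.62 CPM, so that replicate 3 stood far above the other 4. At 11 weeks the level ran from 128 to 665 CPM with a median of 322 CPM, and the rise was 6.51 ± 1.02 on the log2 scale (edgeR adjusted p = 1.04e-05). At 19 weeks it ran from 36.2 to 340 CPM with a median of 254 CPM (5.63 ± 0.97, edgeR adjusted p = 2.56e-05). Even the high saline lung lay below every exposed lung at both times. Arg2, the mitochondrial arginase, rose by much less and varied less. It stood at 7.25, 6.39, 4.08, 6.77 and 3.6 CPM in saline, at 14.1 to 25.7 CPM with a median of 17.6 CPM at 11 weeks (1.72 ± 0.23, edgeR adjusted p = 5.40e-07), and at 10.8 to 24.5 CPM with a median of 17.1 CPM at 19 weeks (1.59 ± 0.22, edgeR adjusted p = 8.80e-07). The highest and the lowest Arg2 values at 11 weeks were 1.83-fold apart, against 5.21-fold for Arg1.

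Odc1, the first enzyme of polyamine synthesis, moved little. It stood at 75.8, 58.4, 57.1, 63.4 and 56.4 CPM in saline, at 63.6 to 106 CPM with a median of 88.8 CPM at 11 weeks and at 70.5 to 96.4 CPM with a median of 78.5 CPM at 19 weeks. The groups overlapped, and the log2 differences of 0.51 (95% interval 0.01 to 0.999, edgeR adjusted p = 0.175) and 0.36 (95% interval -0.11 to 0.84, edgeR adjusted p = 0.221) were not called. Without the steep libraries, whose spread enters the shared fit, the same differences were 0.49 (edgeR adjusted p = 0.00125) and 0.29 (edgeR adjusted p = 0.0324). Both were then called higher. The 11-week difference was also called once the GC slope entered the fit (0.58, edgeR adjusted p = 0.0381). Fitting the compared groups alone called it too (0.52, edgeR adjusted p = 0.011), while DESeq2 did not (0.475, adjusted p = 0.149). At 19 weeks it ran from 0.289 to 0.615 over the 7 other settings, with adjusted p from 0.0285 to 0.318.

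Nos2 rose alongside the arginases. It stood at 3.70, 4.52, 3.97, 5.95 and 5.18 CPM in saline, at 16.7 to 40.9 CPM with a median of 19.3 CPM at 11 weeks (2.29 ± 0.40, edgeR adjusted p = 5.40e-05) and at 12.7 to 62.0 CPM with a median of 28.0 CPM at 19 weeks (2.71 ± 0.40, edgeR adjusted p = 2.11e-06). No exposed lung overlapped saline. Ass1 stood at 5.95, 9.09, 16.4, 8.83 and 6.14 CPM in saline and at 15.0 to 37.9 CPM with a median of 22.5 CPM at 11 weeks. Replicate 3, the saline lung with high Arg1, also had the highest Ass1 of that group and overlapped the exposed lungs. The Ass1 rise of 1.37 ± 0.48 at 11 weeks was close to the threshold (edgeR adjusted p = 0.0443). It was not called with the size factors of DESeq2 (1.34, adjusted p = 0.0568) or without any one of 7 single lungs, 4 of saline and 3 exposed, with changes of 1.18 to 1.35 and adjusted p from 0.0756 to 0.11. At 19 weeks Ass1 ran from 15.0 to 58.4 CPM with a median of 26.2 CPM (1.63 ± 0.47, edgeR adjusted p = 0.00749), a change of 0.97 that was not called (adjusted p = 0.0604) once the GC slope entered the fit as a covariate.

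At 19 weeks the same count was reached, 5 of 6 called higher beside 19.2% of all genes, with 4 of 6 not overlapping saline beside 13.9% of all genes. Both comparisons share the saline lungs. Between 11 and 19 weeks none of the 6 genes was called, beside 0.106% of all genes in either direction, and the ranges of all 6 genes overlapped. The Arg1 difference of -0.88 had a 95% interval from -2.32 to 0.56, so that both a clear decline and a small rise at the later time lie within the error. For Nos2 it was 0.42 (95% interval -0.27 to 1.12), for Slc7a2 -0.11 (-0.94 to 0.72), and the sign for Nos2, Slc7a2, Ass1 and Odc1 turned once the GC slope entered the fit. Isotype antibody against no antibody at 19 weeks called none of the 6 and 0% of all genes. At an unadjusted p under 0.05, 341 of 15979 genes differed there, and DESeq2 called 4. The lowest member p in that comparison was for Nos2, at -0.64 (95% interval -1.30 to 0.03, edgeR adjusted p = 0.977).

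**Figure D2:**
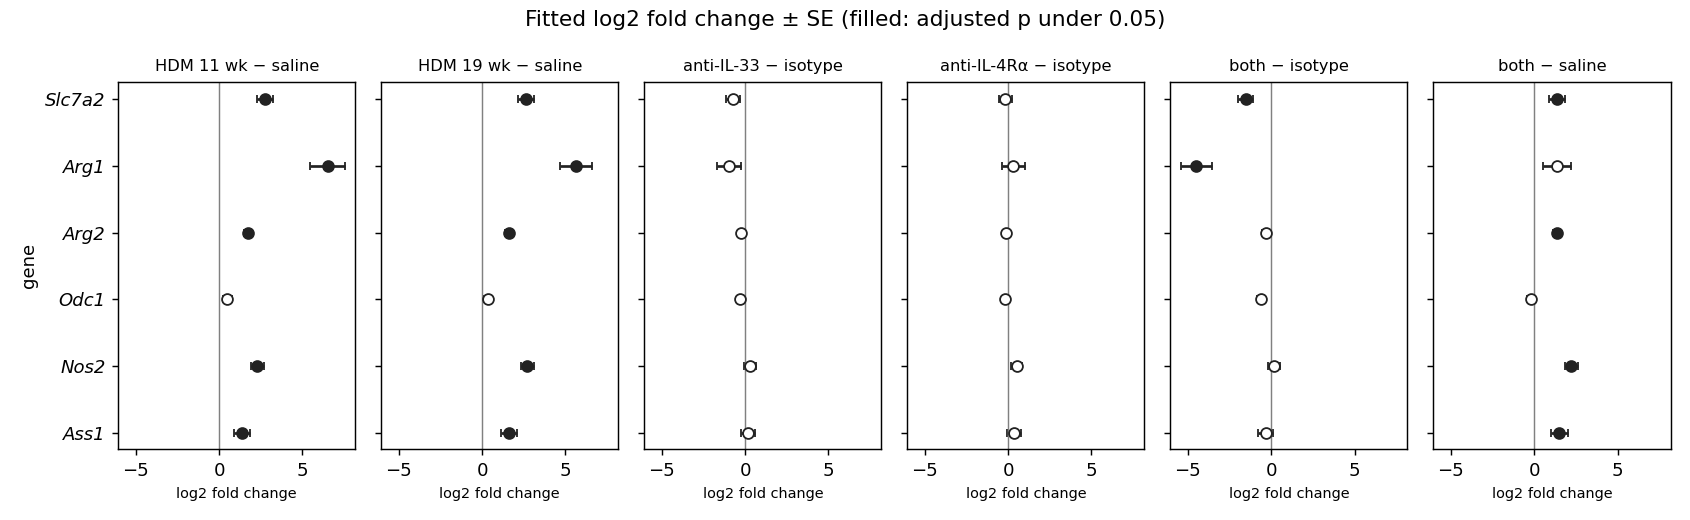
Log2 fold change ± SE of each gene in 6 comparisons, with filled points for an adjusted p under 0.05 and "both" for the combination; a value to the right of 0 is higher in the group named first. Arg1 is at 6.51 and 5.63 in the HDM comparisons, at -4.48 in the combination against isotype, and is the one gene besides Odc1 that is not called in the combination against saline.

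The antibodies were compared with isotype to see which part of the response to HDM depends on each pathway. Neither antibody alone moved any of the 6 genes past the threshold, while the combination lowered Arg1 by 4.48 ± 0.92 on the log2 scale and Slc7a2 by 1.52 ± 0.45. For each single antibody 0 of 6 were called, beside 0% of all tested genes. At an unadjusted p under 0.05, 2878 genes differed for anti-IL-33 and 2242 for anti-IL-4Rα, of 15979, and DESeq2 called 19 and 48 in that order. Against isotype the combination had 2 of 6 called lower, beside 6.32% of all genes, and the same 2 genes did not overlap isotype, beside 2.55% of all genes. None was called higher, beside 12.6% of all genes. These shares of all genes rest on few lungs, since 207 genes were called without combination replicate 1 and 7899 without replicate 2, against 3029 with all lungs.

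Isotype lungs held 59.1 to 720 CPM of Arg1 with a median of 114 CPM. Anti-IL-33 lungs held 21.7 to 421 CPM with a median of 53.9 CPM, and 3 of 6 lay below every isotype lung. Anti-IL-4Rα lungs held 21.8 to 837 CPM with a median of 120 CPM, with 1 lung below and 1 above all isotype lungs. The differences from isotype, -0.97 (95% interval -2.44 to 0.50, edgeR adjusted p = 0.406) and 0.32 (-1.07 to 1.70, edgeR adjusted p = 0.824), were small beside the spread within the groups. Steep lungs were the lowest with anti-IL-33, at 27.4 and 21.7 CPM against 36.2 to 421 CPM in the rest. With anti-IL-4Rα they were at 21.8, 89.4 and 66.2 CPM against 120 to 837 CPM in the rest. The 1 steep lung of the untreated 19-week group did not stand apart, at 301 CPM among 36.2 to 340 CPM. The part of the steep libraries in these levels was not tested. The 5 combination lungs held 17.9, 6.73, 9.05, 14.4 and 6.19 CPM, all below every isotype lung (edgeR adjusted p = 0.00549). In the 2 combination lungs that were not steep, Arg1 was 6.73 and 9.05 CPM, within the range of the steep 3, 6.19 to 17.9 CPM. Without the steep libraries the change was -4.91 (adjusted p = 0.0385), and it stayed called under every other setting and every omission of 1 lung that was run, from -4.73 to -3.91 for the omissions.

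Combination lungs also lay below every lung given a single antibody. Against anti-IL-4Rα the Arg1 difference was -4.80 ± 0.93 (edgeR adjusted p = 0.0191), 1 of 6 genes called lower beside 0.100% of all genes, and 1 of 6 without overlap beside 0.169% of all genes. This call was lost without combination replicate 3, 5 or 8 (adjusted p 0.0564 to 0.084), in a fit of these 2 groups alone (-4.83, adjusted p = 0.168) and without the steep libraries, where the change was larger but the lungs fewer (-5.93, adjusted p = 0.0569). Against anti-IL-33 the difference was -3.51 ± 0.88 and was not called (edgeR adjusted p = 0.261), although no lung overlapped, beside 0.144% of all genes. None of the 6 genes was called in that comparison by edgeR, which called 0.0438% of all genes, while DESeq2 gave Arg1 -3.48 with adjusted p = 0.00303. Between the single antibodies none of the 6 genes was called, beside 0% of all genes, the Arg1 difference of anti-IL-4Rα over anti-IL-33 being 1.29 (95% interval -0.19 to 2.77). That comparison held 409 genes at an unadjusted p under 0.05, and DESeq2 called 3.

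The departure of the combination from the sum of the single antibody changes was tested as an interaction. For Arg1 it was -3.83 ± 1.09, with an unadjusted p of 0.00108 and an edgeR adjusted p of 0.995, and no gene of the 15979 was called (0%). At an unadjusted p under 0.05 there were 321 genes, and DESeq2 called 4. For Arg1 the adjusted p ran from 0.234 to 1 over the 7 other settings. The call thus failed after adjustment over all genes, and the 95% interval of -6.03 to -1.62 is for this gene alone.

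Slc7a2 ran from 227 to 456 CPM with isotype, with a median of 320 CPM. The combination lungs held 74.7, 223, 153, 77.5 and 50.8 CPM, all below isotype (edgeR adjusted p = 0.0259). Within the group the 3 steep lungs were at 50.8 to 77.5 CPM and the other 2 at 153 and 223 CPM. Without the steep libraries the difference from isotype was -0.81 and was not called (adjusted p = 0.228), and it was also not called without combination replicate 1, 5 or 8, the steep ones, with adjusted p from 0.0508 to 0.122. The part of the steep libraries in this difference was not tested beyond these values. Steep libraries were low in the single antibody groups as well: 59.6 and 88.9 CPM against 149 to 439 CPM in the rest with anti-IL-33, and 44.7, 214 and 120 CPM against 273 to 540 CPM in the rest with anti-IL-4Rα. The 1 steep lung of the untreated 19-week group did not stand apart, at 251 CPM among 114 to 460 CPM.

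**Figure D3:**
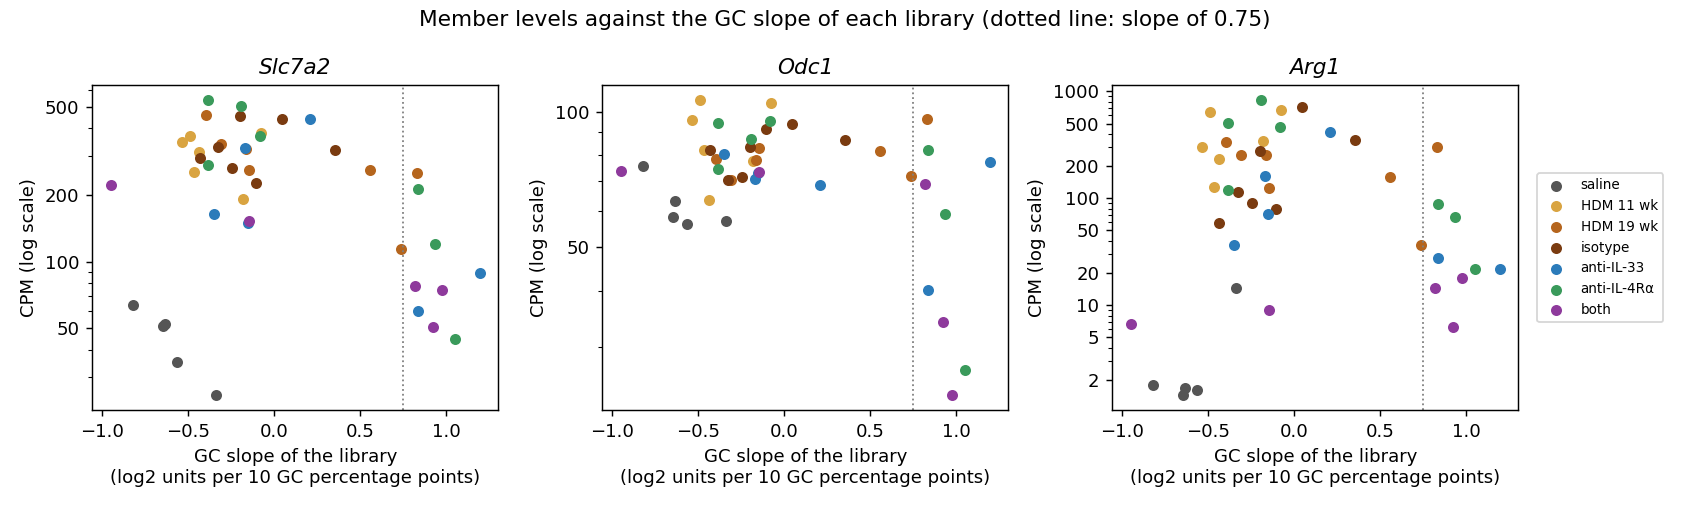
CPM of Slc7a2, Odc1 and Arg1 (log scale) against the GC slope of each library, coloured by group, with a dotted line at 0.75. Right of the line Slc7a2 falls to between 44.7 and 251 CPM and Odc1 reaches down to 23.4 CPM, while the 2 combination lungs left of the line keep low Arg1.

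Odc1 showed the same division. Isotype lungs held 70.7 to 93.7 CPM, and combination lungs 23.4, 73.9, 73.4, 68.9 and 34.1 CPM, where the values under 70 CPM are the steep ones. The difference of -0.60 (95% interval -1.08 to -0.12) did not pass in edgeR (adjusted p = 0.0642) and passed in DESeq2 (-0.57, adjusted p = 0.0381). It also passed without combination replicate 2 or 3, the ones that are not steep, at -0.73 with adjusted p of 0.0198 and 0.0346. Nos2 and Ass1 did not follow this direction. Nos2 in the combination was 30.2, 33.4 and 26.6 CPM in the steep lungs and 9.79 and 10.5 CPM in the other 2, within or above the isotype range of 8.10 to 26.6 CPM with its median of 20.0 CPM. The difference from isotype was 0.17 (95% interval -0.56 to 0.89), and -0.94 without the steep libraries (adjusted p = 0.13). Ass1 was highest in steep lungs with anti-IL-33, at 114 and 50.4 CPM against 11.1 to 22.1 CPM in the rest, and with anti-IL-4Rα, at 63.4, 66.1 and 45.3 CPM against 26.1 to 32.9 CPM. In the combination Ass1 was 23.1, 28.2, 20.7, 12.5 and 47.9 CPM, and its difference from isotype was -0.32 (95% interval -1.23 to 0.60). By transcript, Slc7a2 is GC-poor (43.9% GC, percentile 19.8 of the tested genes) and Nos2 and Ass1 are GC-rich (53.9% and 54.7%). Arg2 (46.1%, percentile 30.3) and Arg1 (47.7%, percentile 38.4) are also on the GC-poor side. Odc1, at 52.4%, was low in several steep lungs. The part of transcript GC content in these values was not tested.

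Arg2 followed neither pattern. Isotype lungs held 14.1 to 21.6 CPM with a median of 19.2 CPM, and the combination 13.1, 10.7, 17.1, 13.4 and 17.8 CPM. The difference of -0.33 (95% interval -0.76 to 0.11, edgeR adjusted p = 0.239) was not called, and the interval excludes a decline of the size seen for Arg1.

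Against saline, the combination lungs kept 4 of the 6 genes higher, beside 27.8% of all genes, with 2 of 6 (Arg2 and Nos2) not overlapping, beside 8.07% of all genes. Arg2 was higher by 1.36 ± 0.23 (edgeR adjusted p = 3.97e-05) and Nos2 by 2.24 ± 0.41 (edgeR adjusted p = 8.76e-05). The Nos2 difference stayed called but was smaller without the steep libraries (1.12, adjusted p = 0.0293) and with the GC slope in the fit (1.20, adjusted p = 0.00184). Slc7a2 was higher by 1.35 ± 0.48 (edgeR adjusted p = 0.0198), and by 2.06 and 2.18 under those settings. In the fit with no covariate this call was lost without saline replicate 3 (adjusted p = 0.0534) or combination replicate 2 (adjusted p = 0.0749). Ass1 was higher by 1.51 ± 0.50 (edgeR adjusted p = 0.0134), a call lost without combination replicate 8 (adjusted p = 0.0643) or once the GC slope entered the fit (0.90, adjusted p = 0.121). Arg1 was not called, at 1.35 ± 0.84 (edgeR adjusted p = 0.174), and this rests on 1 lung: without saline replicate 3 the difference was 2.71 and called (adjusted p = 0.0149). The other 4 saline lungs were all under 2 CPM and all 5 combination lungs above 6 CPM. Odc1 was at -0.18 (95% interval -0.70 to 0.33).

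Ordered by mean log2 CPM, Arg1 ran from 11 weeks of HDM (8.37) through 19 weeks (7.44), isotype (7.38), anti-IL-4Rα (7.35) and anti-IL-33 (6.11) to the combination (3.32) and saline (1.37). No pair of neighbours in that order differed past the threshold, the smallest adjusted p being 0.174 between the combination and saline, although the step from anti-IL-33 to the combination had no overlap. For Arg2, Nos2, Slc7a2 and Ass1 saline was last and the step above it was the one called, to the combination for Arg2 (edgeR adjusted p = 3.97e-05) and Slc7a2 (0.0198), to isotype for Nos2 (8.81e-05) and to 11 weeks of HDM for Ass1 (0.0443). For Slc7a2 isotype was first (8.34) and the combination (6.64) stood next to saline (5.43). For Ass1 anti-IL-4Rα was first (5.30) and saline last (3.12). For Odc1 the combination was last (5.63), below saline (5.95), with no neighbours called.

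Ratios within a lung need no scaling between libraries, but they are not corrected for the GC slope. With counts divided by transcript length, Arg1 made up 19.1%, 17.8%, 77.6%, 19.3% and 30.3% of arginase RNA (Arg1 plus Arg2) in the saline lungs. It made up 88.8% to 97.0% at 11 weeks (median 95.1%), 76.4% to 95.1% at 19 weeks (median 92.8%) and 77.8% to 97.3% with isotype (median 87.6%). So Arg2 was the main arginase transcript in 4 of 5 saline lungs and Arg1 in every HDM lung without antibody or with isotype. Anti-IL-33 lungs were at 59.9% to 95.5% and anti-IL-4Rα lungs at 59.8% to 97.5%. In the combination the share was 57.0%, 37.7%, 33.9%, 51.0% and 25.2%, below every lung of the other HDM groups, and Arg2 was the main one in 3 of 5. Arg1 relative to Nos2, per length, had a median of 0.90 in saline lungs. It was 43.5 after 11 weeks of HDM and 14.5 after 19 weeks. Under antibody the medians were 20.7 for isotype, 10.7 for anti-IL-33, 16.7 for anti-IL-4Rα and 1.68 for the combination. The combination lungs were at 0.66 to 2.44, overlapping the lowest anti-IL-33 lung at 1.10, which is steep. Steep lungs had the lowest Arg1 to Nos2 ratios in each group given a blocking antibody. They were at 3.87 and 1.10 against 6.76 to 51.7 with anti-IL-33, and 3.08, 5.92 and 4.79 against 16.7 to 85.9 with anti-IL-4Rα. In the combination they were at 1.68, 1.22 and 0.66 against 1.95 and 2.44. The part of the steep libraries in these ratios was not tested. These ratios compare transcripts and not enzyme activity, and they restate the Arg1 change, so they were not tested again.

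**Figure D4:**
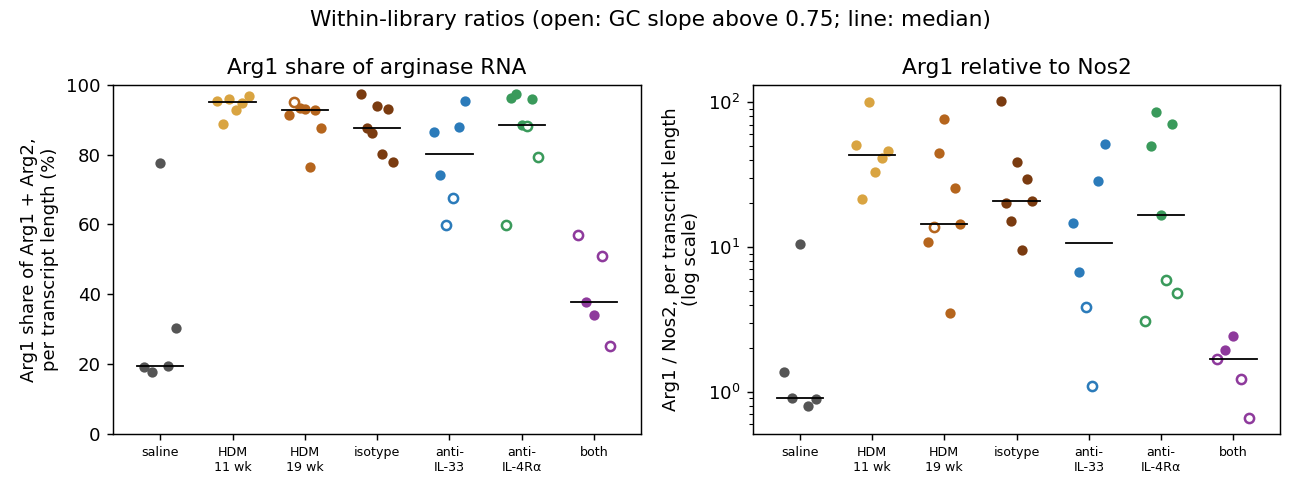
Left, Arg1 as a percentage of Arg1 plus Arg2 counts per transcript length in each lung; right, Arg1 over Nos2 per transcript length (log scale); open points are steep libraries and lines group medians. The combination lungs lie between 25.2% and 57.0% on the left, between most saline lungs and the other HDM groups.

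Of 61 further genes of these pathways, listed by role, 53 had enough counts to be tested. After 11 weeks of HDM 12 of 53 were called higher, beside 8.65% of all genes, and none lower. At 19 weeks 21 were higher, beside 19.2% of all genes, and 2 lower, beside 15.6% of all genes. Median log2 fold changes were 0.18 and 0.72, beside 0.003 and 0.011 for all genes. Without the steep libraries 18 of 54 were higher and 3 lower at 11 weeks, in a fit that called 5443 genes against 2459. At 19 weeks 29 of 54 were higher and 5 lower there, with 8783 genes called against 5562. All 12 and all 23 calls made with all lungs were shared by that fit. With the GC slope as covariate, all 12 were shared at 11 weeks but 13 of 23 at 19 weeks. At 19 weeks that fit had 14 of 53 higher and 6 lower, with 5805 genes called. The calls not shared there included Asl, Azin2, Ddah1 and every polyamine gene but Srm, with Atp13a2 at 0.22 (edgeR adjusted p = 0.417). With all lungs and no covariate, amino acid transport held the most by share, 5 of 10 higher at 11 weeks and 6 of 10 at 19 weeks. Slc7a11, the cystine and glutamate exchanger, rose from 3.39 ± 1.5 (SD) to 49.3 ± 16.1 CPM at 11 weeks (3.86 ± 0.44, edgeR adjusted p = 2.06e-08). Slc7a5 and its partner chain Slc3a2, carriers of large neutral amino acids, rose by 2.03 and 1.14, and Slc7a8 by 2.25. Slc7a1, which encodes the other widely expressed arginine transporter CAT1, was not called at either time, at 25.3 ± 6.54 (SD) CPM in saline and 36.4 ± 9.29 CPM at 11 weeks.

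In the urea cycle list 2 of 7 were higher at 11 weeks and 4 of 7 at 19 weeks. Nags, which makes the activator of mitochondrial carbamoyl phosphate synthesis, rose at a low level, from 0 to 0.17 CPM in saline to 0.85 to 2.42 CPM at 11 weeks (4.05 ± 0.68, edgeR adjusted p = 3.17e-05). Gatm, which uses arginine to start creatine synthesis, rose from 8.20 ± 4.76 (SD) to 30.8 ± 10.6 CPM (1.91 ± 0.56, edgeR adjusted p = 0.0153), a call lost without saline replicate 4 or 5 (adjusted p 0.056 and 0.0585). In the nitric oxide list 1 of 12 was higher at each time, near the 8.65% of all genes at 11 weeks and under the 19.2% at 19 weeks. It was Gch1, the first enzyme of the cofactor tetrahydrobiopterin, which rose from 7.69 ± 1.36 (SD) to 17.8 ± 2.81 CPM at 11 weeks (1.21 ± 0.18, edgeR adjusted p = 6.14e-06). Ddah1, which degrades inhibitors of nitric oxide synthases, and Nostrin, a trafficking partner of the endothelial synthase, were lower at 19 weeks. Among polyamine genes 2 of 17 were higher at 11 weeks (Srm, spermidine synthase, and Sat1, which acetylates polyamines) and 7 of 17 at 19 weeks, and the first of these counts is near the 8.65% of all genes called higher. Of the polyamine calls at 19 weeks, only Srm was shared by the fit with the GC slope as covariate. In the proline list 2 of 7 and 3 of 7 were higher, among them both Pycr1, from 1.12 ± 0.49 (SD) to 5.65 ± 1.51 CPM at 11 weeks, and Aldh18a1, from 18.0 ± 3.54 (SD) to 37.6 ± 8.94 CPM, the enzymes that make proline from glutamate. Oat, which sends ornithine towards proline, was not called.

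**Figure D5:**
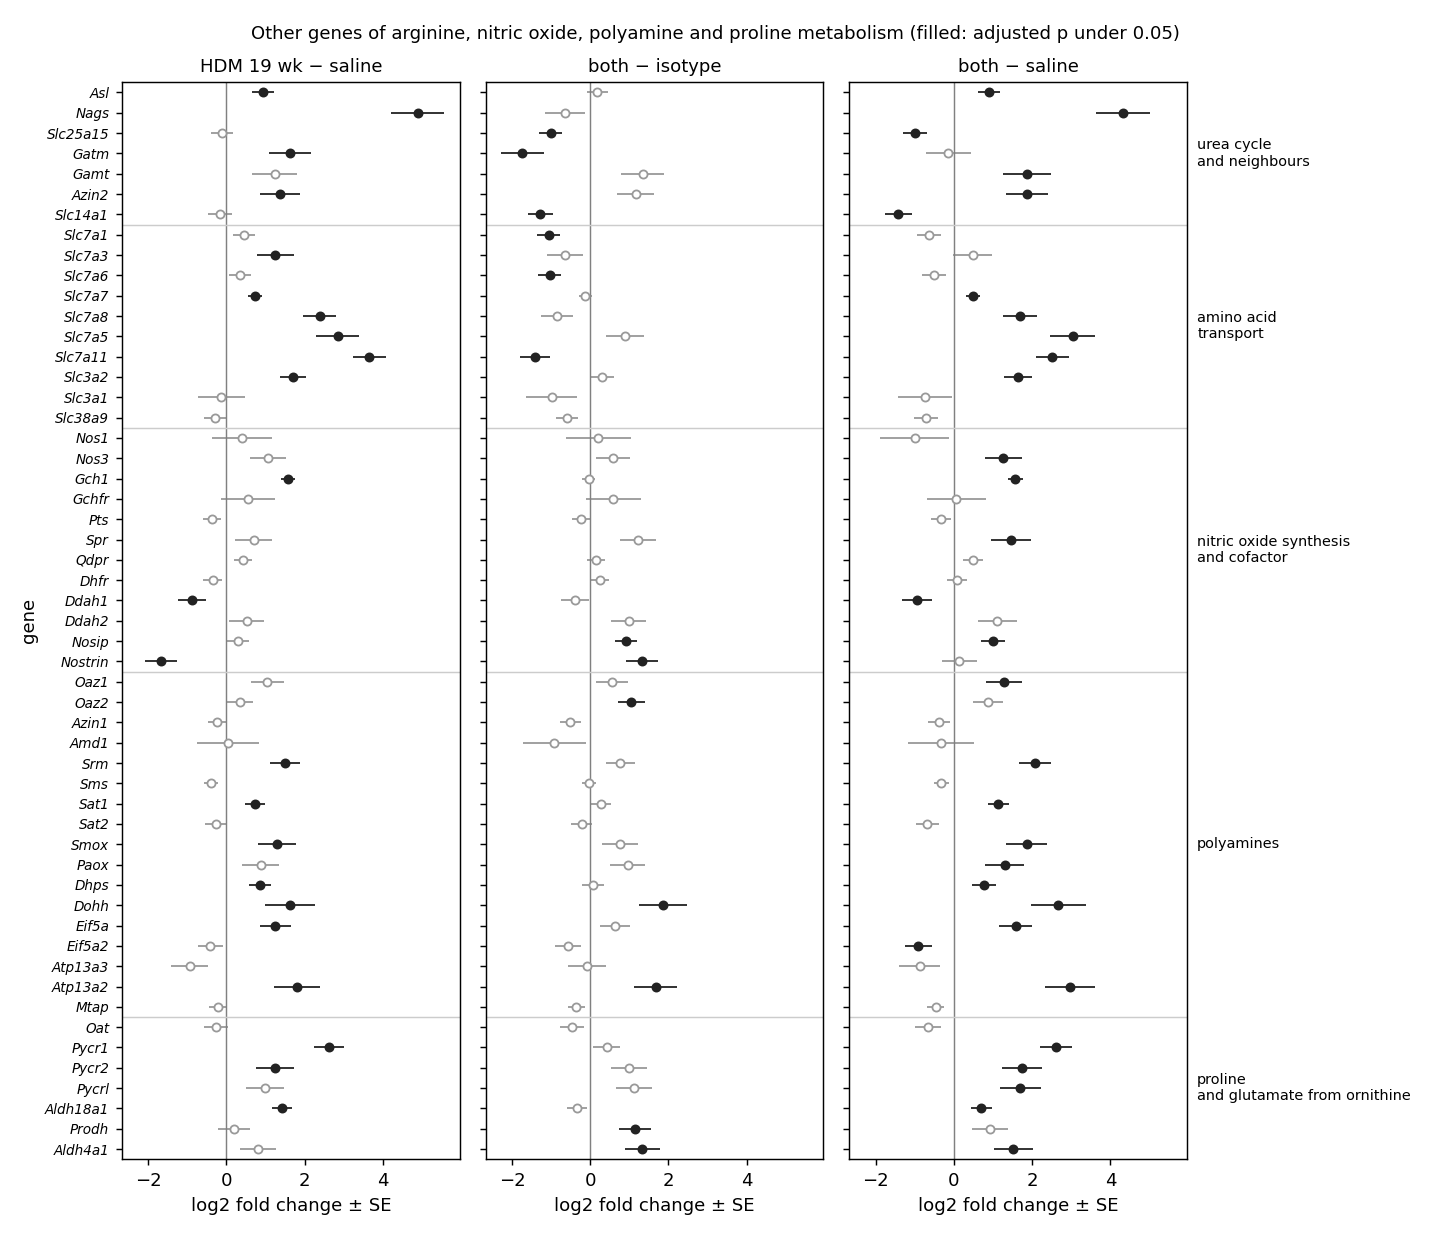
Log2 fold change ± SE of the 53 tested genes of the pathway lists, for HDM at 19 weeks against saline and for the combination against isotype and against saline; dark filled points have an adjusted p under 0.05. Slc7a11, Slc7a5 and Nags lie right of 2 in both comparisons with saline, and in the combination against isotype Slc7a11 (-1.42) is a filled point left of 0 while Nags (-0.64) and Slc7a5 (0.90) are open.

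With the combination against isotype 7 of 53 were higher, beside 12.6% of all genes, and 6 lower, beside 6.32% of all genes. The count of higher genes is thus about the share over all genes. The 6 lower genes were Slc7a1 (-1.06), Slc7a6 (-1.03) and Slc7a11 (-1.42) among transporters, and Gatm (-1.73), the mitochondrial ornithine carrier Slc25a15 (-1.01) and the urea transporter Slc14a1 (-1.27). The 7 higher genes were Nosip, Nostrin, Oaz2, Dohh, Atp13a2, Prodh and Aldh4a1, from 0.92 to 1.86. None of these 13 calls was shared by the fit without the steep libraries, where 0 of 54 were higher and 1 lower, and Dohh (-0.18), Atp13a2 (-0.09) and Aldh4a1 (-0.23) had the opposite sign there. That fit held 2 combination lungs. With the GC slope as covariate 7 of the 13 calls were shared, the 6 lower genes and Nosip. DESeq2 shared all 13, a fit of the 2 groups alone 10, and a fit with replicate numbers as a block 2 (Gatm and Slc14a1). Against saline the combination had 27 of 53 higher, beside 27.8% of all genes, and 4 lower, beside 20.3% of all genes. Without the steep libraries 9 of 54 were higher and 2 lower, in a fit that called 2607 genes in all against 7681. None of the 53 was called for either single antibody against isotype.

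The genes whose log2 CPM followed each member most closely over the 43 lungs are given as a description, since all share the same libraries and groups. For Arg1 they were Fgf23 (Pearson r = 0.93), Corin (0.91), Retnla (0.91), Msx3 (0.91) and Sox9 (0.91). Retnla is, like Arg1, widely used as a marker of alternative macrophage activation. For Slc7a2 they were Ptgs1 (0.95), Slc6a20a (0.94), Anxa4 (0.94), Corin (0.94) and Tnfrsf23 (0.93), so Corin was near the top for both. For Arg2 they were AA467197 (0.90), Ms4a7, Mmp12, Ctss and Slc26a4 (0.88), a set that includes the macrophage elastase Mmp12 and the lysosomal protease Ctss. For Nos2 they were Tnfaip8l1 (0.93), Ltbp2, P2ry6, P2ry2 and Txndc11 (0.89). Ass1 had looser company, from Sh2b2 (0.79) to Fth1 (0.77). The closest to Odc1 were Atp6v0a2 (0.90), Srpr, Wdr1, Aldh9a1 and Wdr77 (0.88), and without the steep libraries these fell to between 0.38 and 0.68. Among the 6 genes, Arg1 and Slc7a2 were the closest, at 0.86, and Slc7a2 and Arg2 reached 0.94 without the steep libraries against 0.76 with them.

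Markers of cell types were summed beside these values, since in whole lung fewer cells of a type and less RNA per cell cannot be told apart. All 8 lists were detected in every group, with no marker at 0 in any group, those of airway and alveolar epithelium and of endothelium included, beside the label of whole lung. The 10 macrophage markers summed to 416 to 694 CPM in saline and 1062 to 1387 CPM at 11 weeks. The largest rises in mean CPM were those of Cd68, from 44.5 to 356 CPM, and Mrc1, from 80.6 to 292 CPM. Adgre1, Cd163, C1qa, C1qb and C1qc were also higher on average. Mertk stood at 39.3 and 44.5 CPM, while Csf1r at 198 and 162.5 CPM and Fcgr1 at 5.18 and 4.91 CPM were lower on average. Of the 10 markers, 4 were called higher at 11 weeks, beside 8.65% of all tested genes. This went alongside the HDM rise of the 5 genes, and the part of macrophages in that rise was not tested. In the combination the macrophage markers summed to 1276 to 1580 CPM, within the isotype range of 1127 to 1794 CPM. Of these, 1 of 10 was called lower, near the 6.32% of all genes. The part of macrophages in the Arg1 difference was not tested. Of the 8 alveolar macrophage markers 4 were called higher in the combination, beside 12.6% of all genes, and none lower, beside 6.32%. They summed to 4872 to 11990 CPM against 6761 to 16990 CPM with isotype. Most of that sum was Chil3, at 7885 CPM on average in the combination and 11460 CPM with isotype, while Marco stood at 160 and 29.4 CPM, Car4 at 222 and 103 CPM and Pparg at 37.3 and 24.8 CPM in the same order. Fabp4 stood at 140 and 54.3 CPM and Ear1 at 6.37 and 2.78 CPM. Itgax, at 395 and 631 CPM, and Siglecf, at 8.16 and 9.70 CPM, were lower on average in the combination, as was Chil3. Marco ran from 47.2 to 287.5 CPM within the combination. The 8 markers of type 2 lymphoid cells summed to 94.1 to 120 CPM in saline and 137 to 257 CPM at 11 weeks, with 5 of 8 higher, beside 8.65% of all genes. They summed to 43.7 to 158 CPM in the combination against 126 to 205 CPM with isotype, 2 of 8 lower, beside 6.32% of all genes. The 8 airway epithelial markers summed to 9723 to 17540 CPM in saline, 2752 to 7045 CPM at 11 weeks, 1731 to 5827 CPM with isotype and 4771 to 11340 CPM in the combination. There 4 of 8 were higher than with isotype, beside 12.6% of all genes. Most of that sum was Scgb1a1, at 13950 CPM on average in saline and 4927 CPM at 11 weeks. The markers did not move together at 11 weeks, with 2 of 8 called higher, beside 8.65% of all genes, and 3 lower. Of 15979 genes 2459 were called there in either direction, 1382 of them higher and the rest lower. Scgb3a2 stood at 348 CPM in saline and 45.0 CPM at 11 weeks, Muc5b at 26.9 and 95.7 CPM, Muc5ac at 1.09 and 10.3 CPM and Foxj1 at 37.6 and 37.0 CPM. The 6 endothelial markers summed to 1781 to 2517 CPM in saline. At 11 weeks they summed to 922 to 1402 CPM (2 of 6 lower, where 2459 of 15979 genes were called in either direction, 1382 of them higher and the rest lower). At 19 weeks they summed to 566 to 1127 CPM (4 of 6 lower, beside 15.6% of all genes). In the combination they summed to 462 to 1366 CPM (5 of 6 lower than in saline, beside 20.3% of all genes). The 5 erythroid markers reached 177100 CPM in 1 anti-IL-4Rα lung, and ran from 512 to 10650 CPM in the combination against 268 to 952 CPM with isotype. These marker counts are from the fit with all lungs, the steep ones included. The part of these cell types in the differences above was not tested.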

How the data were processed

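RNA from whole lungs was sequenced with a stranded mRNA kit as single reads, per the labels' protocols. The authors deposited a table of expected counts per gene, identified by NCBI Gene ID, on mm10 per the submitters' processing notes. Neither the aligner nor the counting tool, nor whether strand was used, is stated in the labels. Of the nonzero expected counts as deposited, 76.8% were whole, and all were rounded. Symbols were found for 24371 of 24475 IDs, and 3193 genes were at 0 throughout.

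Groups came from the sample titles, and none of the table's columns of values was left unused (0). edgeR 4.0.16 (R 4.3.3) fitted 43 libraries in 7 groups by quasi-likelihood, with TMM scaling and a low-count filter that left 15979 genes. P-values were adjusted by the Benjamini-Hochberg method over all of them and called under 0.05, which also applies to every adjusted p printed without a tool's name. Residual degrees of freedom were 36. CPM uses the TMM library sizes, and values per length use the longest GENCODE M21 transcript. GC content was available for 15230 tested genes. Alternatives were DESeq2 1.42.0, its size factors in edgeR, no filter, a replicate block, the GC slope as covariate, the groups compared alone, and leaving out the steep libraries or each lung in turn. Total counts limit precision for low genes such as Nags.

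The 6 genes, the pathway and marker lists and the tests were chosen with earlier results of these data known. All 6 genes are named throughout, with up to 6 called pathway genes of the largest change per comparison and other list members as examples. The most similar genes were the top 5 by Pearson r of log2 CPM (prior count 1). Promoter sequences are from RefSeq GRCm38.p6.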

Additional observations from a re-analysis of the deposited data

Results flagged for a closer look

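In 42 sets of values, 1 per gene and group, 5 lungs stood apart from the rest of their group by Dixon's criterion, applied to CPM. Chance alone meets it in about 1 in 20 groups where values are normally spread, which was not checked for CPM. On the log2 scale the flags can differ. Arg1 in saline replicate 3 was 14.6 CPM, with the next lung at 1.78 CPM. Arg1 in anti-IL-33 replicate 7 was 421 CPM, with the next at 163 CPM. Nos2 in HDM 11-week replicate 9 was 40.9 CPM, with the next at 23.9 CPM. Nos2 in anti-IL-33 replicate 5 was 55.9 CPM, with the next at 23.1 CPM, and this library is steep. Odc1 in anti-IL-33 replicate 4 was low at 40.1 CPM, with the next at 68.5 CPM, and this library is steep too.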

How the results depend on the processing

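Over all comparisons, 504 log2 fold changes of the 6 genes under other settings gave 460 with the same direction and call, 26 with the opposite sign, 9 newly called and 9 no longer called. Leaving out single lungs gave 914, 26, 4 and 16 of 960. The causes were not tested.

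Genes called for HDM at 11 weeks against saline came to 4495 with the GC slope as covariate, 5443 without the steep libraries and 6038 with the compared groups alone, against 2459, and for 19 weeks to 8783 without the steep libraries, against 5562. For 19 against 11 weeks (17 called) they came to 11 without the filter, 190 without the steep libraries, 68 with the compared groups alone and 106 by DESeq2, and to 0 to 46 without single lungs. DESeq2 called 4 genes for isotype against 19 weeks, 19 for anti-IL-33 and 48 for anti-IL-4Rα against isotype, and the last had 1 with the compared groups alone. Without single lungs these antibody counts ran from 0 to 137 (137 without anti-IL-33 replicate 7) and from 0 to 13.

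For the combination against isotype, 489 genes were called without the steep libraries and 1824 with the compared groups alone, against 3029, and 207 (without combination replicate 1) to 7899 (without replicate 2) without single lungs. Of the 6 genes 1 was called without the steep libraries and 1 to 3 without single lungs. Against anti-IL-33 (7 called) the counts were 133 without the steep libraries, 1 with the compared groups alone, 22 by DESeq2 (1 of the 6 genes) and 0 to 10 without single lungs. Against anti-IL-4Rα (19 called) they were 603 with the GC slope (2 of the 6 genes), 39 without the steep libraries (0 of 6), 0 with the compared groups alone (0 of 6), 148 by DESeq2, and 1 to 583 without single lungs (0 to 2 of 6), the highest without anti-IL-4Rα replicate 2. Between the single antibodies they were 1 with the compared groups alone, 3 by DESeq2 and 0 to 1 without single lungs. Against saline (7681 called) they were 3728 with the GC slope, 2607 without the steep libraries, 4845 with the compared groups alone and 4854 to 10018 without single lungs. For the interaction they were 1 with the GC slope, 3 without the steep libraries, 4 by DESeq2 and 0 to 1 without single lungs.

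Signs turned as follows. With the GC slope as covariate, 19 against 11 weeks gave Nos2 -0.15, Odc1 0.031, Slc7a2 0.39 and Ass1 -0.25, isotype against 19 weeks gave Odc1 -0.047 and Slc7a2 -0.01, anti-IL-33 against isotype gave Nos2 -0.19 and Ass1 -0.36, anti-IL-4Rα gave Ass1 -0.016, and the combination gave Nos2 -0.40 against isotype and Odc1 0.06 against saline. Without the steep libraries, anti-IL-33 against isotype gave Nos2 -0.20 and Ass1 -1.06, anti-IL-4Rα gave Arg2 0.053, Odc1 0.10, Slc7a2 0.35 and Ass1 -0.14, and the combination against isotype gave Nos2 -0.94, Dohh -0.18, Atp13a2 -0.091 and Aldh4a1 -0.23. Under that setting the combination gave Odc1 0.016 and Ass1 0.64 against anti-IL-33 and Odc1 0.25 against saline, and the interaction Arg2 -0.24 and Ass1 0.78. Without single lungs the ranges that crossed 0 were, for 19 against 11 weeks, Slc7a2 -0.27 to 0.028 and Ass1 -0.014 to 0.41, for isotype against 19 weeks Arg1 -0.37 to 0.38, for anti-IL-33 Nos2 -0.15 to 0.41 and Ass1 -0.54 to 0.39, and for anti-IL-4Rα Arg1 -0.19 to 0.89 and Slc7a2 -0.39 to 0.015. For the combination they were Nos2 -0.034 to 0.35 against isotype, Arg2 -0.18 to 0.041, Nos2 -0.32 to 0.32 and Ass1 -0.84 to 0.23 against anti-IL-33, and Odc1 -0.33 to 0.01 against saline. Between the single antibodies Ass1 ran from -0.037 to 0.89, and for the interaction Arg2 from -0.061 to 0.16 and Odc1 from -0.31 to 0.032.

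The labels give groups the same replicate numbers, but deviations of same-numbered lungs had a median correlation of -0.012 over 88 pairs (31 above 0.1), against 0.008 over 702 other pairs, so the numbers were not taken as pairing. With a replicate block 551 genes and 1 of the 6 (Arg1) were called for the combination against isotype, 0 genes and 0 of 6 against anti-IL-4Rα, 0 for 19 against 11 weeks and 2 for the interaction. With the block Arg1 was -0.27 for isotype against 19 weeks and -0.064 for anti-IL-4Rα against isotype, Arg2 was 0.031 for the combination against anti-IL-33, and Ass1 at 11 weeks was not called (1.14, adjusted p = 0.139).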
